A study of Mus musculus with 56 samples.

Results

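Hepcidin and 9 other genes of iron handling were chosen by symbol from a table of liver gene counts and described across 7 groups of 8 mice. These 10 members, of 21935 genes in the table, were Hamp and Hamp2 (hepcidin and its paralog), Bmp6, Id1 and Smad7 (the signal that sets hepcidin), Tfr2, Tfrc and Trf (the transferrin system), Slc40a1 (ferroportin) and Fth1 (ferritin heavy chain). No cut on measured values was used to choose them, but earlier results of these data were known. All 10 passed the filter on low counts (at least 5 reads in at least 3 mice), as did 14105 genes in all. The mice were male C57BL/6J, 5 to 6 weeks old on arrival. The mice of 6 groups ate AMLN diet (high in fat, with added fructose and cholesterol) for 36 weeks before dosing, and were included after a biopsy showed metabolic dysfunction-associated steatohepatitis (MASH), so that these diet-induced obese mice are called DIO-MASH mice. They received vehicle, zalfermin (an FGF21 analog with a long half-life) at a low dose of 0.05 mg/kg or a high dose of 0.2 mg/kg, semaglutide (a GLP-1 receptor agonist) at a low dose of 3 ug/kg or a high dose of 120 ug/kg, or both drugs together, daily and under the skin for 8 weeks. The chow-fed controls received vehicle on CHOW diet. The labels give the combination as zalfermin + semaglutide; the series' design text names the high dose of each drug, and the study's methods name the low dose of each, so that the combination is given here without a dose. A low-dose semaglutide mouse that the study excluded is not marked in the labels and was kept.

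Hepcidin is a small peptide hormone that hepatocytes secrete. It binds ferroportin, the only known iron exporter, and causes its breakdown, so that less iron leaves the gut lining, macrophages and liver. Hepatocytes adjust hepcidin transcription to iron through bone morphogenetic proteins, mainly BMP6 made by liver sinusoidal endothelial cells, whose receptors activate SMAD proteins that bind the hepcidin promoter. Id1 and Smad7 are further targets of that pathway. Transferrin receptor 2 and hemojuvelin act at the same step, and interleukin 6 raises hepcidin through STAT3. Within cells, iron regulatory proteins stabilise the transcript of transferrin receptor 1 when iron is scarce and block the translation of ferritin and ferroportin.

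The mouse holds 2 hepcidin genes side by side on chromosome 7, both on the minus strand, Hamp at chr7:30942368-30944029 and Hamp2 at chr7:30922372-30924181 (GRCm38). Their promoters are shown because the BMP and the STAT input both act there and because the paralogs differed in their levels below. Each line gives the 100 bases from 150 to 51 bases before the transcript start, from RefSeq on GRCm38.p6, read 5′ to 3′ on the gene's strand (Hamp, chr7:30944080-30944179; Hamp2, chr7:30924232-30924331), with the BMP response element core GGCGCC and the STAT site TTCNNNGAA in capitals where they occur:
Hamp: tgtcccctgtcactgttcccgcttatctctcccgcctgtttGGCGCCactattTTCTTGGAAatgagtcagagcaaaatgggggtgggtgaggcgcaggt
Hamp2: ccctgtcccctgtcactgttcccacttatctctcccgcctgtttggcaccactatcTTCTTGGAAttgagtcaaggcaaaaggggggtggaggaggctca
Both promoters held the STAT site, at position -97 in Hamp and -94 in Hamp2, counted from the transcript start. The BMP element of Hamp began at -109, and the aligned place in Hamp2 carried the substitution G4A, counted from the first base of the element and with the base of Hamp first. Over the whole windows of 300 bases the paralogs matched at 276 of 303 aligned columns (91.1%). Searched on both strands, GGCGCC occurred in 11.9% and TTCNNNGAA in 8.3% of 32851 promoter windows of the same length, so that neither is rare. Of the 10 members, 6 had a promoter window, and besides Hamp only Tfrc held a BMP element core, at -89. These matches describe letters, not binding.

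The near identity also bears on the counts. The transcripts of Hamp and Hamp2, of 410 and 420 bases, matched at 389 of 420 aligned columns (92.6%), yet only 13 of the 336 stretches of 75 bases (the number of sequencing cycles) in Hamp also occurred in Hamp2. Most full-length reads could therefore be told apart, while shorter or mismatched reads may have been split between the paralogs, and all values of Hamp and Hamp2 carry that uncertainty.

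The libraries held 5228187 to 20885786 reads on genes per mouse (median 12206788). Most mice resembled their group closely (mean Spearman correlation 0.970 to 0.988), except chow-fed mouse 8 (0.947) and low-dose semaglutide mouse 6 (0.967), and member calls that changed without these mice are given with both values. Chow-fed mouse 8 carried 125 genes more than 4-fold above every other mouse, among them the bile duct gene Krt19 at 156 CPM (read counts scaled to library size, with TMM normalisation), against at most 16.8 in the other mice. Chow-fed mice 2 and 7 stood out in the acute-phase gene Saa1, at 5193 and 1613 CPM, while the other 6 chow-fed mice lay between 15.9 and 55.9 CPM. Each sample is a separate mouse by its label. The 8 hepatocyte markers listed summed to at least 63358 CPM in every mouse, and no marker of any of the 8 cell types listed was at 0 in all 56 mice.

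The first comparison set chow-fed controls against DIO-MASH vehicle mice. These groups differ in diet, obesity and liver disease at once, so that the part of each cannot be told apart. The study's methods do not give the iron content of either diet. Hepcidin and the hepatocyte iron sensor Tfr2 were higher in all 8 chow-fed controls than in any DIO-MASH vehicle mouse, by 7.11-fold and 2.03-fold. Bmp6, its target Id1, transferrin and ferroportin were also higher in chow-fed controls, whereas Tfrc, Smad7 and Fth1 did not pass the test. In all, 7 of 10 members were higher in chow-fed controls and none was lower (edgeR, adjusted p under 0.05), in a comparison in which 55.4% of all genes tested passed, 26.5% higher and 28.9% lower, and DESeq2 called 6 members. One of the 7, Hamp2, rested on a single mouse. The median difference of the members was 0.72 on the log2 scale against -0.01 for all genes.

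Hamp, the main hepcidin gene, lay between 804 and 1858 CPM in chow-fed controls (median 1295) and between 45.4 and 398 CPM in DIO-MASH vehicle mice (median 166). Every chow-fed mouse was above every vehicle mouse, a separation that 16% of all genes showed in either direction, Tfr2 among them. The log2 fold change was 2.83 ± 0.49 (SE, n = 8 and 8, adjusted p = 2.9e-06). Sample numbers in the labels fell into 4 runs separated by gaps of more than 100, of 22, 15, 16 and 3 mice, and within the 3 larger runs the difference in mean log2 CPM was 3.28, 3.84 and 2.76. What the runs stand for is not given in the sources used here.

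**Figure D1:**
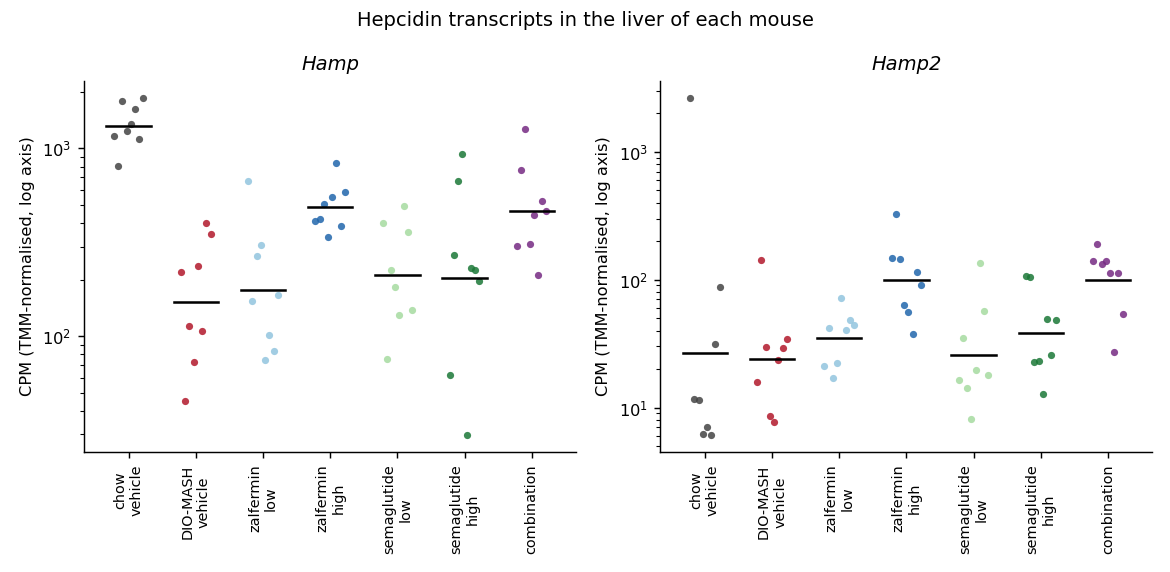
Hamp and Hamp2 in CPM on a log axis in each of the 7 groups. Points are mice (n = 8 per group) and black bars are geometric means. All chow-fed mice lie above all DIO-MASH vehicle mice for Hamp, and 1 chow-fed mouse stands at 2633 CPM for Hamp2, with the next at 88.1.

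Hamp2 did not follow. In chow-fed controls 7 of the 8 mice had between 6.07 and 88.1 CPM, and mouse 1 had 2633 CPM from 25674 reads, so that the median was 11.6 CPM. In DIO-MASH vehicle mice it lay between 7.71 and 142 CPM with a median of 26.2. The fitted log2 fold change of 3.26 ± 0.85 (adjusted p = 0.0011) therefore rested on 1 mouse, while the chow-fed median was below the vehicle median and 3 chow-fed mice were below every vehicle mouse. Without chow-fed mouse 1 the difference was -0.67 (adjusted p = 0.34), and in the DESeq2 test it was -0.48 (adjusted p = 0.47). DESeq2 was run at default settings, which replace counts flagged as outliers in groups of 8. Its value is therefore not taken as one that uses the reads of chow-fed mouse 1 as measured. Hamp in that mouse was not unusual for its group, at 1166 CPM. The 1 other gene more than 4-fold above all other mice in it was Eno1b, at 21.3 CPM against at most 0.35 in the 55 others (chosen after its values were seen).

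Bmp6, the ligand, was at 3.46 to 9.03 CPM in chow-fed controls (median 5.92) and at 2.62 to 5.76 CPM in vehicle mice (median 3.80). The ranges overlapped, with 4 of 8 chow-fed mice above all vehicle mice, and the difference was 0.63 ± 0.21 (adjusted p = 0.0091). Id1, a transcriptional regulator that BMP signalling induces, ranged from 4.67 to 30.9 CPM in chow-fed controls (median 18.3) and from 4.12 to 9.69 CPM in vehicle mice (median 7.66). The exception to separation was chow-fed mouse 2, at the lowest value of its group, and the other 7 were above every vehicle mouse. The difference in Id1 was 1.27 ± 0.26 (adjusted p = 4.4e-05). Smad7, the inhibitory SMAD that feeds back on the pathway, was at 4.97 to 18 CPM in chow-fed controls (median 7.20) and 4.49 to 7.41 CPM in vehicle mice (median 6.14). Its difference of 0.50 ± 0.24 did not pass (adjusted p = 0.076), but did so without chow-fed mouse 2, 7 or 8. Without chow-fed mouse 8 and low-dose semaglutide mouse 6 it was 0.58 (adjusted p = 0.039).

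Tfr2, which senses iron-loaded transferrin on hepatocytes, was separated without overlap. It lay between 570 and 909 CPM in chow-fed controls (median 694) and between 307 and 385 CPM in vehicle mice (median 365). The groups did not overlap, and the log2 fold change was 1.02 ± 0.10 (adjusted p = 3.7e-12). Tfrc, transferrin receptor 1, which imports transferrin-bound iron, ran the other way without passing the test. It was at 5.03 to 34.7 CPM in chow-fed controls (median 14.6) and at 12.2 to 42.1 CPM in vehicle mice (median 22.9), with a difference of -0.64 ± 0.38 (adjusted p = 0.15).

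Trf, the plasma iron carrier that the liver secretes, had values of 1086 to 3866 CPM in chow-fed controls (median 1816) and 1113 to 2036 CPM in vehicle mice (median 1236). The groups overlapped, with the lowest value of both groups in a chow-fed mouse, and the difference was 0.69 ± 0.17 (adjusted p = 0.00051). Slc40a1, the exporter that hepcidin removes, ranged from 125 to 310 CPM in chow-fed controls (median 207) and from 84.5 to 157 CPM in vehicle mice (median 126). All but 1 of the 8 chow-fed mice were above all vehicle mice, and the difference was 0.75 ± 0.17 (adjusted p = 0.00017). Fth1, a subunit of the iron-storing ferritin shell, was at 1618 to 4040 CPM in chow-fed controls (median 2063) and at 1917 to 2408 CPM in vehicle mice (median 2088). Its difference was 0.09 ± 0.12 (adjusted p = 0.52), and its highest value came from chow-fed mouse 8, far above the next at 2475 CPM. Without it the difference was -0.07 (adjusted p = 0.54).

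**Figure D2:**
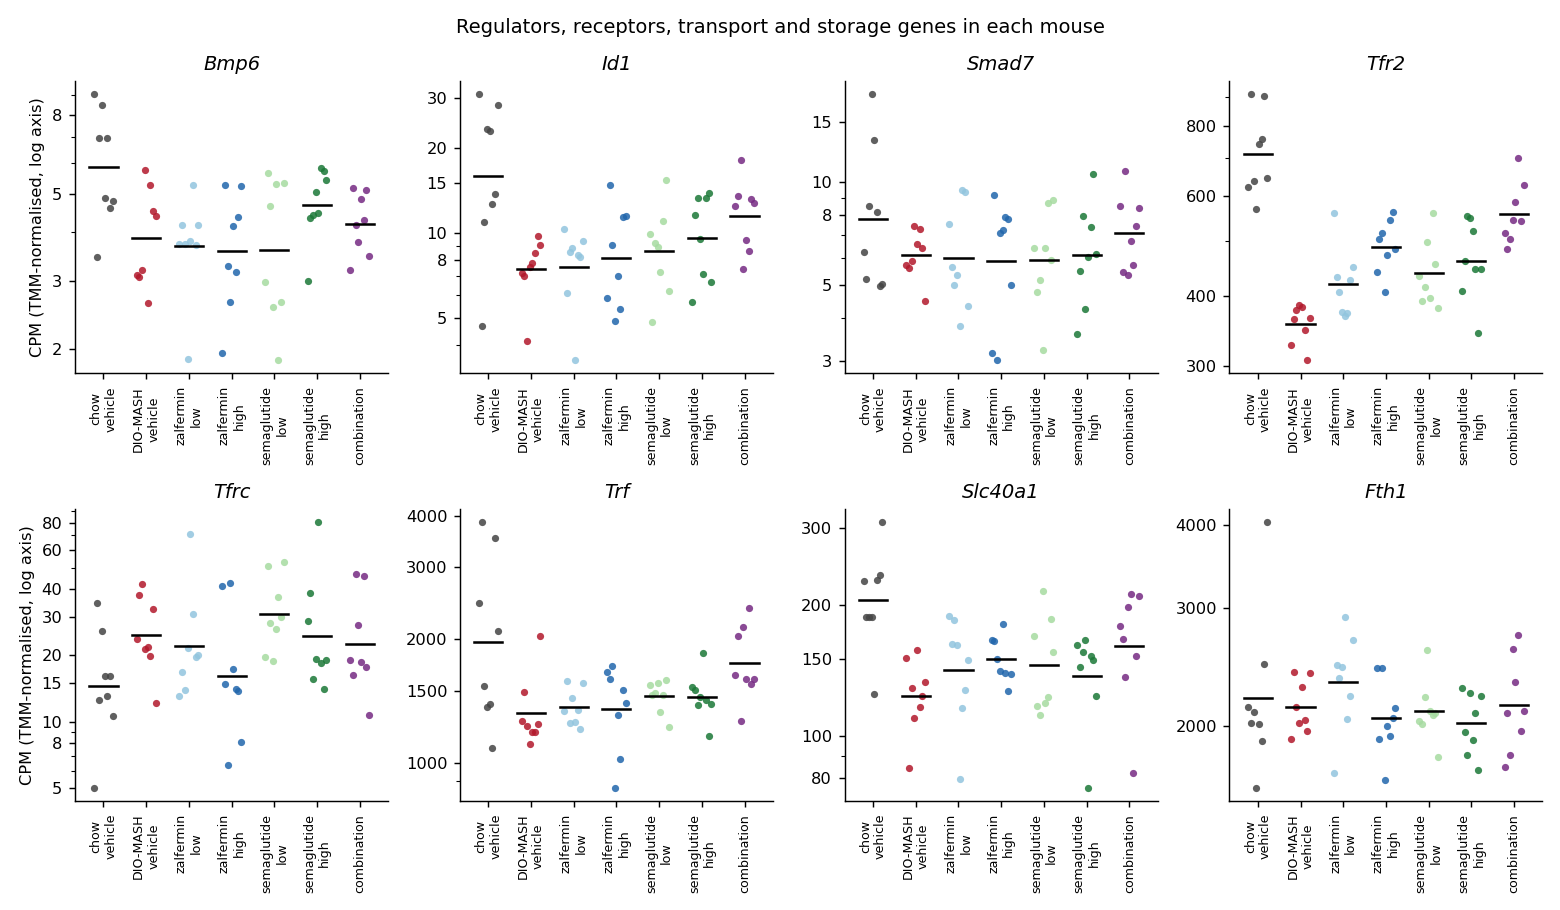
Bmp6, Id1, Smad7, Tfrc, Tfr2, Trf, Slc40a1 and Fth1 in CPM on log axes in each of the 7 groups. Points are mice (n = 8 per group) and black bars are geometric means. Tfr2 is separated between chow-fed controls and DIO-MASH vehicle mice, and Fth1 overlaps in all groups.

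Chow-fed mouse 2, the mouse with the highest Saa1, was the lowest of its group in Hamp, Id1 and Bmp6 and the highest in Tfrc, Trf and Tfr2. Without chow-fed mice 2 and 7, an alternative chosen after seeing the data, 7 members were again called in chow-fed controls, but not the same 7. The share of all genes called in that fit is not given here. Trf lost its call (0.31, adjusted p = 0.073) and Smad7 gained one (0.70, adjusted p = 0.016). Hamp, Bmp6, Id1, Tfr2 and Slc40a1 were called with and without them.

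These libraries are of whole liver, in which fewer cells of a type and less RNA per cell cannot be told apart. In chow-fed controls 7 of 8 hepatocyte markers were higher, and their summed level was 155118 to 241971 CPM against 63358 to 85993 CPM in vehicle mice. By contrast 7 of 8 markers of monocyte-derived macrophages and 6 of 8 of hepatic stellate cells were lower, with summed levels of 50.6 to 89.9 against 385 to 759 CPM and of 96.3 to 181 against 434 to 692 CPM. Of the markers of sinusoidal endothelial cells, which make BMP6, 2 of 10 were higher and 3 lower, and the sums overlapped (406 to 580 and 391 to 529 CPM). Slc40a1 is itself among the 8 Kupffer cell markers listed, of which 4 were higher and 1 lower. Also, 3 of 6 bile duct and 7 of 7 T and B cell markers were lower, and 1 of 8 red cell markers was higher. The part of the cell make-up in the differences of the iron genes was not tested.

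The values depend on how libraries are put on one scale. With TMM scaling, which centres most genes at no change, the median gene differed by -0.01 between chow-fed controls and vehicle mice, and 47.9% of the genes called were higher. With total-count scaling, an alternative chosen after seeing the data, the median gene was at -0.47 and 8.30% of calls were higher. Hamp (2.38), Tfr2 (0.55) and Id1 (0.81) were still called higher on that scale. Bmp6 (0.18), Trf (0.19) and Slc40a1 (0.28) were not called, Tfrc was called lower (-1.10, adjusted p = 0.011), and Fth1 turned to -0.38 (adjusted p = 0.0018). Relative to the median gene, total-count differences were 2.85 for Hamp, 1.02 for Tfr2, 0.75 for Slc40a1 and 0.09 for Fth1.

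**Figure D3:**
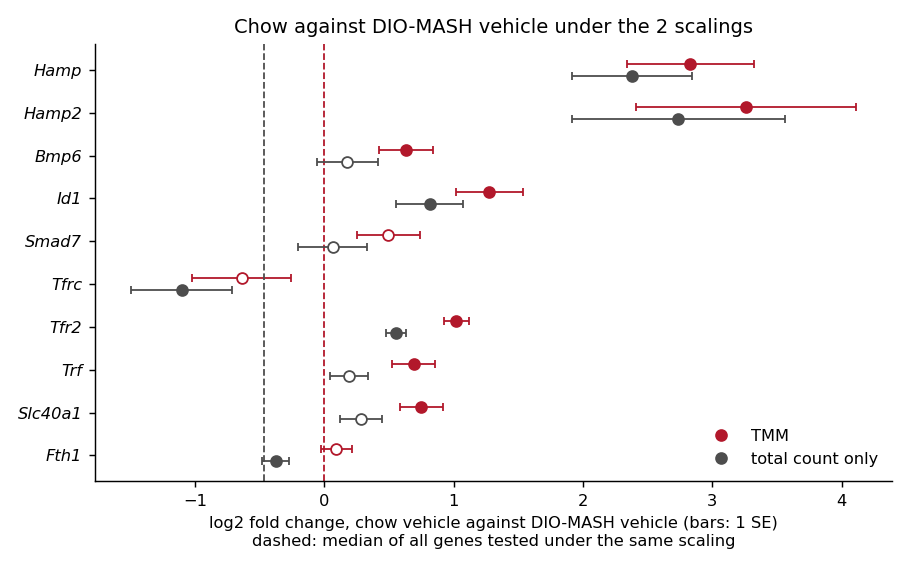
Log2 fold change of the 10 members between chow-fed controls and DIO-MASH vehicle mice under TMM and under total-count scaling, with bars of 1 SE, filled points for an adjusted p under 0.05 and dashed lines at the median of all genes. Hamp, Tfr2 and Id1 lie above 0 on both scales, Fth1 changes sign, and the median gene moves to -0.47.

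The next comparisons asked what the combination and the higher doses did in DIO-MASH mice. Hepcidin and Tfr2 rose with the combination and under zalfermin at the high dose, and Tfr2 alone was called under semaglutide at the high dose. Hamp rose 2.79-fold and 2.63-fold in the first 2 groups, and Tfr2 rose 1.58-fold, 1.38-fold and 1.31-fold in the 3 groups. These comparisons share the 8 vehicle mice, so they are not independent of each other. No member was called lower with any treatment against vehicle.

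In the combination group 2 of 10 members were called, both higher, where 20.9% of all genes were called, 10% higher and 10.9% lower. Hamp was at 212 to 1270 CPM (median 451), and 5 of 8 mice were above every vehicle mouse. Its log2 fold change was 1.48 ± 0.47 (adjusted p = 0.018), and without combination mouse 3, the highest, it was 1.17 (adjusted p = 0.078). Tfr2 was at 483 to 701 CPM (median 543), with all 8 mice above the vehicle range, a separation that 3.98% of all genes showed. Its difference was 0.66 ± 0.10 (adjusted p = 1.8e-06), and it was 0.57, 0.75 and 0.83 within the 3 runs of sample numbers, in which Hamp differed by 2.46, 1.29 and 1.26.

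Other members had an unadjusted p under 0.05 in the combination group without passing the adjusted threshold, namely Hamp2, Id1, Trf and Slc40a1. Of all genes, 34.3% had an unadjusted p under 0.05 in that comparison. Hamp2 was at 27 to 188 CPM (median 122), above the vehicle median in all 8 mice, with a difference of 1.64 ± 0.81 (adjusted p = 0.14). The DESeq2 test called it, and so did the fit without vehicle mouse 2 (2.42, adjusted p = 0.039). The spread behind the SE of Hamp2 was estimated over all 7 groups, with chow-fed mouse 1 at 2633 CPM among them. Leaving out that mouse alone was not tried for this comparison. Id1 was at 7.44 to 18 CPM (median 12.6) with 0.65 ± 0.26 (adjusted p = 0.067). Slc40a1 had a difference of 0.41 ± 0.17 (adjusted p = 0.068) and Trf one of 0.41 ± 0.17 (adjusted p = 0.077). A fit of the 2 groups alone called 5 members, and one without chow-fed mice 2 and 7 called 4. The shares of all genes called in these fits are not given here, so these counts are not read as a result about the members. Smad7 (0.24), Bmp6 (0.10), Tfrc (-0.06) and Fth1 (0.02) did not pass, with adjusted p from 0.50 to 0.93.

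With high-dose zalfermin 2 of 10 members were called, both higher, where 17.2% of all genes were, 8.54% higher and 8.68% lower. Hamp was at 338 to 841 CPM (median 465), with the smallest SD of log2 CPM of any DIO-MASH group (0.42), and 6 of 8 mice were above all vehicle mice. The difference was 1.39 ± 0.47 (adjusted p = 0.030), and it lost its call in 5 of the 17 fits that left out 1 mouse each, those without vehicle mouse 2, 3, 4 or 6 or high-dose zalfermin mouse 6 (adjusted p up to 0.069). Tfr2 was at 405 to 561 CPM (median 494), all above the vehicle range, and 4.8% of all genes did not overlap in either direction. Its difference was 0.46 ± 0.10 (adjusted p = 0.00055). Hamp2 was at 37.5 to 326 CPM (median 102) and did not pass (1.75 ± 0.81, adjusted p = 0.13), although DESeq2 called it, as did edgeR without vehicle mouse 2 (2.53, adjusted p = 0.037). Here too the SE of Hamp2 rested on a spread that included chow-fed mouse 1. Tfrc, at 6.37 to 42.7 CPM (median 14.5), had a difference of -0.45 ± 0.38 (adjusted p = 0.46).

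With high-dose semaglutide 1 of 10 members was called, higher, where 2.43% of all genes were called, 1.43% higher and 1.0% lower. Tfr2 was at 344 to 553 CPM (median 453), with 7 of 8 mice above all vehicle mice. Its difference was 0.38 ± 0.10 (adjusted p = 0.024), the call was lost without mouse 3 (0.35, adjusted p = 0.084) or mouse 4 (0.35, adjusted p = 0.081) of that group, and under total-count scaling it was 0.25 (adjusted p = 0.063). Hamp spread further in this group than in any other, from 29.6 to 930 CPM (median 227). Its SD of log2 CPM was 1.63, with 2 mice above and 1 below the whole vehicle range, and the difference of 0.76 ± 0.46 did not pass (adjusted p = 0.39).

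Markers of other cells moved with these groups as well. Of the 8 hepatocyte markers, 6 were higher in the combination group (summed level 89926 to 138335 CPM) and all 8 under high-dose zalfermin (86788 to 140898 CPM). Under semaglutide at the high dose 2 were higher (70804 to 121938 CPM). Markers of monocyte-derived macrophages were lower for 5 of 8 with the combination (91.7 to 435 CPM) and 5 of 8 with high-dose zalfermin (74.2 to 411 CPM), and these sums overlapped those of vehicle mice (385 to 759 CPM). Markers of hepatic stellate cells were lower for 5 of 8 with the combination (182 to 359 CPM) and 2 of 8 with high-dose zalfermin (163 to 334 CPM), without overlap with vehicle mice (434 to 692 CPM), and for 1 of 8 under semaglutide at the high dose (220 to 688 CPM). The part of these markers in the rise of Hamp and Tfr2 was not tested. Under total-count scaling Hamp and Tfr2 were still called with the combination (1.27 and 0.43) and high-dose zalfermin (1.20 and 0.27), while the median gene moved to -0.25 and -0.21 and 9.89% and 13.5% of calls were higher.

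**Figure D4:**
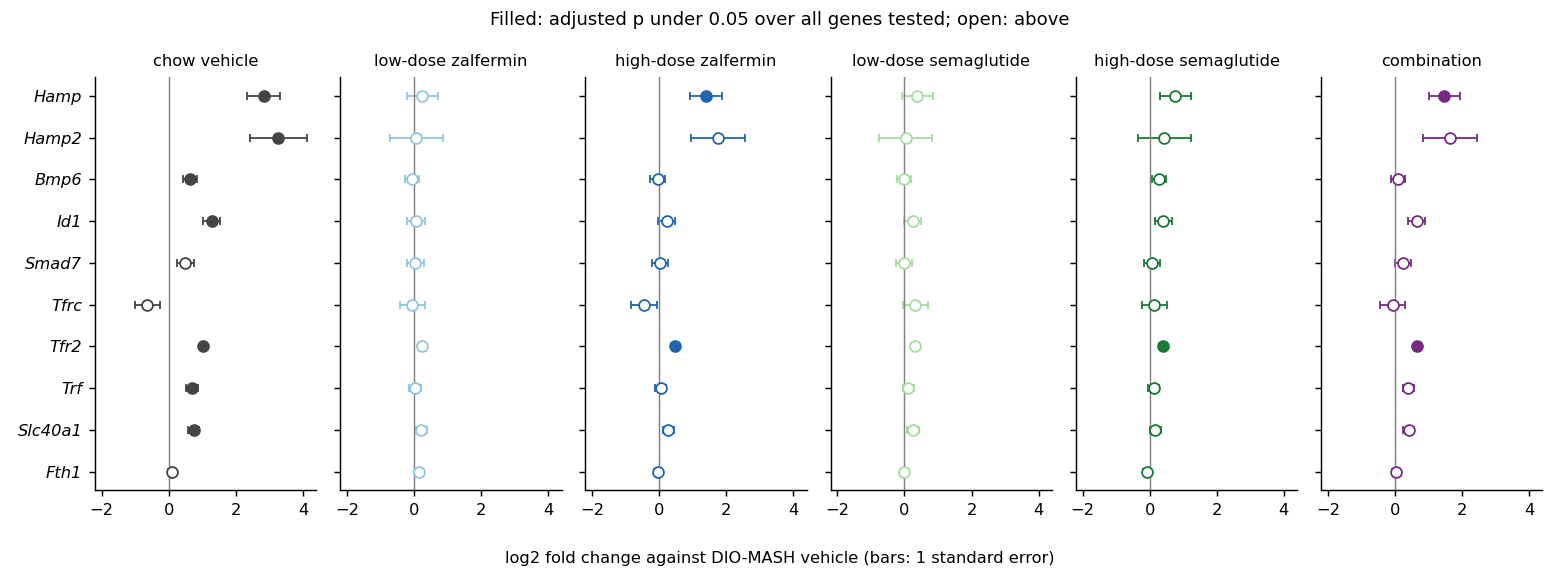
Log2 fold change of each member against DIO-MASH vehicle in chow-fed controls and the 5 treated groups, with bars of 1 SE from the edgeR fit. Filled points had an adjusted p under 0.05 and open points did not. Tfr2 lies above 0 in all 6 comparisons and is filled in 4 of them, and Hamp is filled in 3.

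At the low doses no member was called. With low-dose zalfermin 0.468% of all genes were called by edgeR (0.418% higher, 0.0496% lower). There 1 member, Tfr2, had an unadjusted p under 0.05, as had 11.3% of all genes. With low-dose semaglutide 0.0% of all genes were called. Again Tfr2 alone of the members had an unadjusted p under 0.05, as had 8.66% of all genes. DESeq2 called no member in either comparison. Tfr2 was at 368 to 561 CPM (median 416) with low-dose zalfermin and 5 of 8 mice were above all vehicle mice (0.25 ± 0.10, adjusted p = 0.29). It was at 381 to 561 CPM (median 424) with low-dose semaglutide and 7 of 8 mice were above all vehicle mice (0.31 ± 0.10, adjusted p = 0.33). Hamp had medians of 160 and 204 CPM, close to the vehicle median, and its differences were 0.25 ± 0.46 and 0.38 ± 0.46. Their 95% intervals reached from -0.65 to 1.14 and from -0.52 to 1.28.

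The combination was then set against each low dose. Tfr2 was the 1 member called in both comparisons, higher each time, where 6.62% (3.27% higher, 3.35% lower) and 4.21% (1.93% higher, 2.28% lower) of all genes were called. It was higher in the combination by 0.41 ± 0.10 than with low-dose zalfermin (adjusted p = 0.0060) and by 0.35 ± 0.10 than with low-dose semaglutide (adjusted p = 0.027). The second difference lost its call in 7 of 16 fits that left out 1 mouse each (adjusted p up to 0.080) and in the fit of the 2 groups alone. Hamp differed by 1.23 ± 0.46 (adjusted p = 0.098) and 1.10 ± 0.46 (adjusted p = 0.18), without passing. The departure of the combination from the sum of both low-dose effects was tested as an interaction on the log2 scale. In it 0.0142% of all genes were called, and no member was, by edgeR or DESeq2. At an unadjusted p under 0.05 there were 0 members and 6.75% of all genes. For Tfr2 the interaction was 0.10 ± 0.14 and for Hamp 0.85 ± 0.65, with 95% intervals from -0.17 to 0.38 and from -0.42 to 2.12. If the combination held the high doses, as the design text has it, these comparisons also change the dose of each drug.

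No member was called by edgeR or DESeq2 among the combination and the high doses of zalfermin or semaglutide. Of all genes 0.503% were called between the combination and high-dose zalfermin, 1.89% between the combination and high-dose semaglutide, and 0.447% between the high doses. Tfr2 was the member nearest to a call, higher in the combination than with high-dose semaglutide by 0.27 ± 0.10 (adjusted p = 0.15) and than with high-dose zalfermin by 0.20 ± 0.10 (adjusted p = 0.46), both with an unadjusted p under 0.05, as Trf had in the latter (0.36 ± 0.17). Of all genes 14.4% and 10.9% had an unadjusted p under 0.05 in these comparisons, in the same order. The interval for Hamp between the combination and high-dose zalfermin ran from -0.81 to 0.98, and it was not called (0.09 ± 0.46, adjusted p = 0.98). Between high-dose and low-dose zalfermin no member was called either by edgeR (1.84% of all genes) or DESeq2, with Hamp (1.15 ± 0.46, adjusted p = 0.23), Hamp2 and Tfr2 at an unadjusted p under 0.05. There 13.5% of all genes had an unadjusted p under 0.05.

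Against chow-fed controls, 30 calls were made over the 5 treated groups, 29 of them lower. With low-dose zalfermin 7 members were lower (47.5% of all genes called, 25.1% higher and 22.5% lower). With low-dose semaglutide 7 were lower and 1 higher (45.6%, 24.4% higher and 21.3% lower). High-dose zalfermin left 6 lower (37.2%, 19.7% higher and 17.6% lower), high-dose semaglutide 6 (39.9%, 21.3% higher and 18.6% lower) and the combination 3 (32.4%, 17.4% higher and 15.0% lower). Hamp and Tfr2 did not overlap with chow-fed controls at either low dose (8.17% of all genes for zalfermin and 3.95% for semaglutide), nor did Tfr2 at the high doses (4.89% and 4.56%), and every member overlapped with the combination (2.65%). Hamp was lower in all 5 groups, by 6.0-fold and 5.46-fold at the low doses, 4.19-fold with high-dose semaglutide, 2.71-fold with high-dose zalfermin and 2.55-fold with the combination. Tfr2 was lower in all 5 groups as well, by 1.71-fold, 1.64-fold, 1.55-fold, 1.47-fold and 1.29-fold in the same order, the last lost without chow-fed mice 2 and 7 (-0.24, adjusted p = 0.079). The remaining call with the combination was Bmp6 (-0.52 ± 0.21, adjusted p = 0.048), a call lost in 9 of 17 fits without 1 mouse. Tfrc was higher with low-dose semaglutide (0.96 ± 0.38, adjusted p = 0.035), at 18.9 to 52.9 CPM with 3 of 8 mice above all chow-fed mice. Without chow-fed mouse 8 and low-dose semaglutide mouse 6 this call was lost (0.86, adjusted p = 0.074), as were those of Slc40a1 with low-dose semaglutide (-0.49 to -0.36, adjusted p = 0.081) and high-dose zalfermin (-0.48 to -0.38, adjusted p = 0.067), and Smad7 was then lower with low-dose semaglutide (-0.50 to -0.67, adjusted p = 0.025). All 5 comparisons share the chow-fed mice, and the Hamp2 calls in 3 of them rest on chow-fed mouse 1. Without that mouse Hamp2 was higher than in chow-fed controls with the combination (2.30, adjusted p = 0.0029) and high-dose zalfermin (2.42, adjusted p = 0.0016).

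The medians of Hamp ran in the order chow-fed controls, high-dose zalfermin, combination, high-dose semaglutide, low-dose semaglutide, DIO-MASH vehicle and low-dose zalfermin. Chow-fed controls differed from each other group. No neighbours further down the order were called different, from high-dose zalfermin against the combination to vehicle against low-dose zalfermin. The medians of Tfr2 ran in nearly the same order, with the combination before high-dose zalfermin, low-dose semaglutide before low-dose zalfermin, and vehicle last.

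Mice of the same group varied far more in hepcidin than in most genes. The within-group standard deviation of log2 CPM was 0.99 for Hamp and 1.5 for Hamp2, larger than for 98.3% and 99.8% of the genes tested, where the median gene had 0.31. It was 0.77 for Tfrc and 0.19 for Tfr2. Tfr2, the member called in most comparisons with vehicle, was thus among the steadier genes and Hamp among the least steady.

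Whether Hamp moved with its inputs and outputs from mouse to mouse was asked within groups. Deviations of log2 CPM from the group mean were correlated over 56 mice, for 11 relations, with permutation of mice within groups and Benjamini-Hochberg adjustment. In all, 4 relations passed. The permutation test was not run on other genes, so the share of all genes that would pass is not given here. The relations are therefore not read as particular to these genes. Id1 moved with Hamp (Pearson's r = 0.47, Spearman's rho = 0.51, permutation p = 4e-05 and 5e-05, adjusted 0.00044 and 0.00055), as did Slc40a1 (r = 0.49, rho = 0.42, permutation p = 0.00033 and 0.0030, adjusted 0.00091 and 0.011). Tfrc moved against it (r = -0.45, rho = -0.43, permutation p = 0.00033 and 0.0014, adjusted 0.00091 and 0.0079). Saa1 also ran against it (r = -0.30, rho = -0.34, permutation p = 0.00016 and 0.0068, adjusted 0.00088 and 0.019), but without chow-fed mice 2 and 7 the rank correlation did not pass (rho = -0.26, adjusted permutation p = 0.16), while the linear one did (r = -0.38, adjusted permutation p = 0.0065).

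Without the 2 mice farthest from the median of Hamp, high-dose semaglutide mice 4 and 5, r was 0.50 for Id1, 0.40 for Slc40a1, -0.37 for Tfrc and -0.30 for Saa1. Within the 3 larger runs of sample numbers, of 22, 15 and 16 mice, r was 0.51, 0.44 and 0.35 for Id1 and 0.37, 0.68 and 0.30 for Slc40a1. For Tfrc it was -0.33, -0.68 and -0.10, and for Saa1 -0.33, -0.53 and 0.05, so that these relations held less evenly. Bmp6 (r = -0.09), Smad7 (r = 0.11), Tfr2 (r = 0.14), Trf (r = -0.16), Fth1 (r = -0.13), Socs3 (r = -0.11) and the paralog Hamp2 (r = -0.06) gave adjusted permutation p from 0.24 to 0.60.

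**Figure D5:**
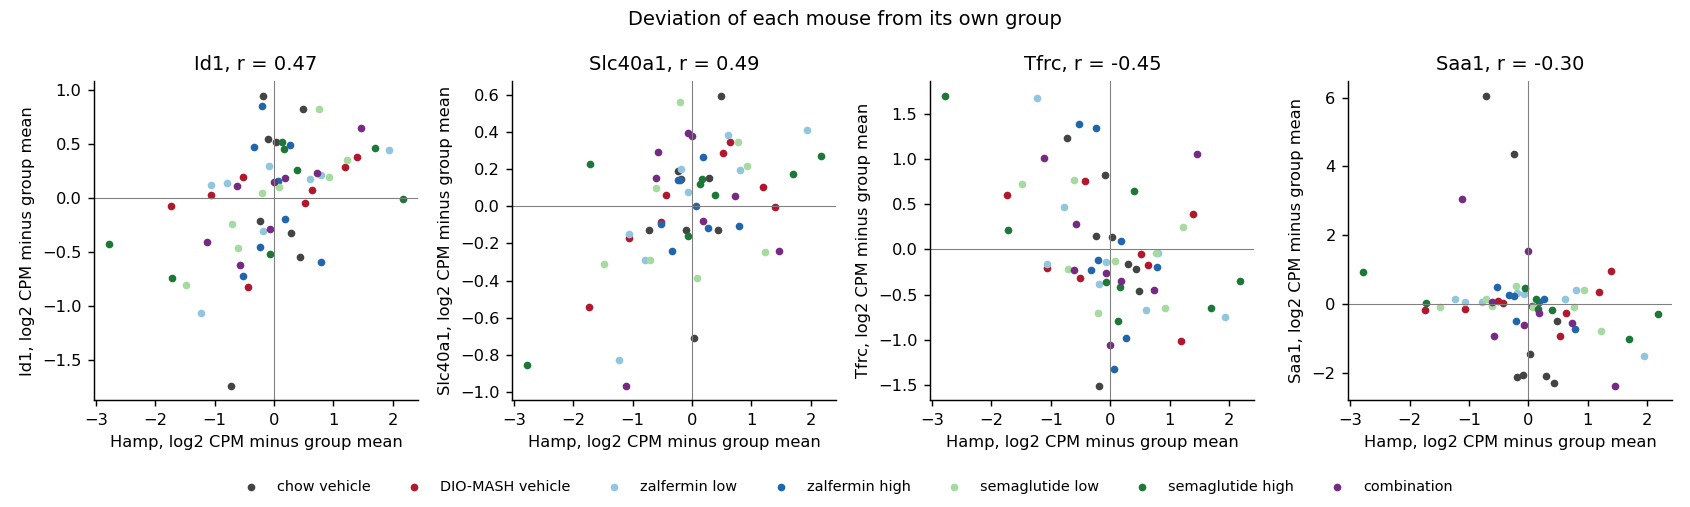
Deviation of log2 CPM from the group mean for Hamp (horizontal) and 4 other genes (vertical), each point 1 of 56 mice coloured by group. Id1 and Slc40a1 rise with Hamp, and Tfrc and Saa1 decline, with wide scatter in all 4.

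Of 11874 genes with a mean of at least 1 CPM, those whose within-group deviations were most like those of Hamp over the 56 mice were Apoa5 (r = 0.73), Tdo2 (r = 0.65), Bdh2 (r = 0.65), Dgat2 (r = 0.63) and Cyp2d9 (r = 0.63). Apoa5 and Dgat2 act in triglyceride handling and Tdo2 in tryptophan breakdown. Id1 and Slc40a1 were not among them.

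The other genes of the pathway were taken from 6 lists. The BMP-SMAD and IL6-STAT3 lists, named as inputs, also hold downstream targets such as Atoh8 and the acute-phase gene Saa1. Their counts are therefore not a measure of the input to hepcidin. The counts of all 6 lists stand against 55.4% of all genes called in chow-fed controls, 20.9% with the combination, 17.2% under high-dose zalfermin and 2.43% under semaglutide at the high dose. Of 21 tested genes of the BMP-SMAD input, 7 were higher and 6 lower in chow-fed controls (median 0.09 on the log2 scale), 6 higher and 2 lower with the combination, 3 higher with high-dose zalfermin and 1 lower with high-dose semaglutide. That last gene was Sostdc1, which was at or near 0 in most mice and gets no fold change. Smad9, a receptor-activated SMAD, was higher in chow-fed controls (1.87 ± 0.34, adjusted p = 9.0e-06), with the combination (1.15 ± 0.34, adjusted p = 0.012) and with high-dose zalfermin (1.09 ± 0.34, adjusted p = 0.021). It was at 11.1 to 37.2 CPM in chow-fed controls and at 3.64 to 11.8 CPM in vehicle mice. The calls under treatment were lost without combination mouse 3 (adjusted p = 0.054) and without high-dose zalfermin mouse 8 (adjusted p = 0.064). Bambi, a decoy receptor, was lower in chow-fed controls (-1.08 ± 0.28), and Inhbb, the activin B subunit, was lower with the combination (-1.01 ± 0.25). In the fit without chow-fed mice 2 and 7, 7 genes of this list were higher and 5 lower in chow-fed controls. The share of all genes called in that fit is not given here. Hfe2 (hemojuvelin) was then at -0.90 (adjusted p = 3.6e-06) and Tmprss6, which cleaves hemojuvelin, at 0.59 (adjusted p = 7.0e-07). Both were named after their values were seen, and their differences are given for that fit only. Fgl1, a protein that hepatocytes secrete, was higher with the combination (1.70 ± 0.40, adjusted p = 0.0016). Its call in chow-fed controls (0.95 ± 0.39) was lost without chow-fed mouse 2 (0.15) or 7 or vehicle mouse 1 or 4, and the chow-fed median of 136 CPM was below the vehicle median of 181.

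Of 11 tested genes of the IL6-STAT3 input, 6 were higher and none lower in chow-fed controls (median 0.48, with 26.5% of all genes higher). With the combination 5 were higher (10% of all genes), as were 5 under zalfermin at the high dose (8.54%). With high-dose semaglutide edgeR called none and DESeq2 called 1, and 3 had an unadjusted p under 0.05 (16.9% of all genes). The count in chow-fed controls turned without mice 2 and 7, when 3 were higher and 5 lower (median 0.01). Saa1 went from 1.95 to -3.11 and Saa2 from 2.45 to -3.60, and Lcn2, named after its values were seen and not called with all mice (1.49), was then at -5.13. Fgb, a fibrinogen chain, was higher in chow-fed controls with and without these mice (1.32 and 1.03), and also with the combination (0.94 ± 0.17) and high-dose zalfermin (0.60 ± 0.17). Il6ra, the interleukin 6 receptor, was higher in chow-fed controls (1.31 ± 0.25), with high-dose zalfermin (0.97 ± 0.24) and with the combination (0.70 ± 0.24, lost in 5 fits without 1 mouse). Saa3, a further serum amyloid A gene, was higher with the combination (1.33 ± 0.30, adjusted p = 0.0010) and with high-dose zalfermin (0.89 ± 0.30, adjusted p = 0.034, lost in 6 fits without 1 mouse).

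Of 18 genes of iron and heme uptake, 8 were higher and 2 lower in chow-fed controls, 2 and 1 with the combination and 2 and 2 with high-dose zalfermin. Slc39a14, a transporter of iron not bound to transferrin, was higher in all 3 (0.77 ± 0.15, 0.55 ± 0.15 and 0.62 ± 0.15), and the heme transporter Slc48a1 was lower with the combination (-0.35 ± 0.09) and high-dose zalfermin (-0.45 ± 0.09). Cd163, the macrophage receptor for hemoglobin bound to haptoglobin, was at 6.26 to 46.1 CPM in chow-fed controls and at 0 to 2.84 CPM in vehicle mice, without overlap. The call of Cybrd1 in chow-fed controls ended without mouse 8 (3.10 to 0.37). Of 11 genes of storage, export and control by iron regulatory proteins, 5 were higher in chow-fed controls, 4 with high-dose zalfermin, 2 with the combination and 1 under semaglutide at the high dose, and none was lower. One of the 5, Ncoa4, which directs ferritin to breakdown, was not called without chow-fed mouse 8 (0.46 to 0.18, adjusted p = 0.15). With high-dose zalfermin the 4 were Ireb2 (0.47 ± 0.15, lost in 5 fits without 1 mouse) and Aco1 (0.33 ± 0.08), which encode the iron regulatory proteins, the hypoxia factor gene Epas1 (0.45 ± 0.15, lost in 9 such fits) and Pcbp2. Pcbp2, an iron chaperone, was in all 4, by 0.52 ± 0.08 in chow-fed controls, 0.29 ± 0.08 with high-dose zalfermin, 0.38 ± 0.08 with the combination and 0.32 ± 0.08 under semaglutide, the last lost without mouse 2, 3 or 4 of its group.

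Of 12 genes of heme synthesis and breakdown, 6 were higher and 2 lower in chow-fed controls, 3 and 1 with the combination and 1 and 0 with high-dose zalfermin. Fech, the last enzyme of heme synthesis, was higher by 0.63 ± 0.08 in chow-fed controls and by 0.38 ± 0.08 in both treated groups, and Uros, an earlier enzyme, was lower in chow-fed controls (-0.88 ± 0.14) and with the combination (-0.74 ± 0.14). Of 11 genes of iron-sulfur cluster assembly, 5 were higher in chow-fed controls. Of the 84 genes of the 6 lists, edgeR called none with low-dose zalfermin and DESeq2 called 2. In that comparison 10 had an unadjusted p under 0.05 (11.3% of all genes). With low-dose semaglutide edgeR called none and DESeq2 called 0, and 6 had an unadjusted p under 0.05 (8.66% of all genes). Under total-count scaling the counts moved, as did those of all 14105 genes tested. Of these, 773 were higher and 8537 lower in chow-fed controls, and 444 and 4044 with the combination. High-dose zalfermin had 496 and 3183, and high-dose semaglutide 70 and 282. The counts of the lists on that scale stand against these numbers. In chow-fed controls 2 were higher and 11 lower for the BMP-SMAD input, 3 and 2 for IL6-STAT3, 2 and 4 for uptake, 0 and 3 for storage, 1 and 6 for heme and 0 and 6 for iron-sulfur clusters. With the combination 3 were higher and 3 lower for the BMP-SMAD input, 3 and 0 for IL6-STAT3, 0 and 2 for uptake, 0 and 2 for storage, 0 and 3 for heme and 0 and 3 for iron-sulfur clusters. Under zalfermin at the high dose the counts were 1 and 0, 2 and 0, 1 and 4, 0 and 2, 0 and 3, and 0 and 1 in the same order, and under high-dose semaglutide 1 gene was lower for the BMP-SMAD input, 1 for uptake and none for the others. Smad9, Fgb, Il6ra, Cd163 and Fech were still called higher in chow-fed controls, Bambi and Uros lower, and in that comparison Slc39a14 and Pcbp2 were not called. Pcbp2, Ireb2, Aco1, Epas1, Fech and Saa3 were not called either under zalfermin at the high dose with that scaling, and Saa3 was still higher with the combination (1.11).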

How the data were processed

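Liver RNA of 56 mice (7 groups of 8) was sequenced by the authors with a stranded mRNA kit over 75 cycles and aligned to GRCm38 with STAR, and the authors deposited whole-number read counts per gene, not normalized. The submitters' processing notes also name Trim Galore 0.6.4 and Salmon 1.9.0. The counting step and its use of strand are not given in the sources used here. Groups came from the labels.

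From the deposited counts, genes with at least 5 reads in at least 3 mice were kept (14105 of 21935) and fitted together for all 7 groups with edgeR 4.0.16 (TMM, quasi-likelihood F test, two-sided, R 4.3.3). P-values were Benjamini-Hochberg adjusted over the 14105 genes, and "called" means an adjusted p under 0.05. Values after ± are SE on the log2 scale. Correlations used 100000 permutations of mice within groups, two-sided, with log2 CPM at a prior count of 2. In 20 comparisons DESeq2 1.42.0, DESeq2 size factors, total-count scaling, other filters, the run of sample numbers as covariate, the compared groups alone and leaving out mice were tried. On simulated counts for the combination against vehicle (13941 genes, 200 changed 2-fold), 92.5% of the changed genes were recovered and 6.09% of calls were false. Each simulated gene had the spread typical of its expression level, and fewer genes changed than the 20.9% called in the data. The recovery therefore does not apply to genes as variable within groups as Hamp and Hamp2. No 2 libraries of a group agreed within sampling noise (lowest chi-square per degree of freedom 7.57). Depth was 5228187 to 20885786 reads. Genes at a few CPM, such as Bmp6, rest on fewer reads and are less precise.

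The members, lists, markers and tests were chosen with earlier results of these data known. Genes of the lists were named from the called genes with the largest change, at most 4 a list and comparison, and not all of these are named. Hjv and Fam132b were not found in the table under these symbols, and hemojuvelin was there as Hfe2. The result for 1 listed gene is not reported here.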

Additional observations from a re-analysis of the deposited data

Results flagged for a closer look

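Within groups of 8, a mouse was singled out where its gap to the nearest other mouse in log2 CPM, as a share of the group's range, exceeded Dixon's 95% critical value. Of 70 tests (10 genes in 7 groups) 8 passed, where chance gives about 1 in 20. Hamp2 in chow-fed mouse 1 was at 2633 CPM against 88.1 CPM in the next mouse, and its calls are given with and without that mouse. Fth1 in chow-fed mouse 8 was at 4040 CPM, in the library that also stood apart in its correlation with its group. Tfr2 in low-dose zalfermin mouse 1 was at 561 CPM, and the same mouse had the highest Hamp of its group, at 673 CPM.

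The other 5 were low values. Bmp6 was at 1.89 CPM in low-dose zalfermin mouse 4 and at 2.99 CPM in high-dose semaglutide mouse 1. Id1 was at 4.12 CPM in DIO-MASH vehicle mouse 3. Slc40a1 was at 82.2 CPM in combination mouse 6 and at 75.9 CPM in high-dose semaglutide mouse 5. These last mice also had the lowest Hamp of their groups, at 212 and 29.6 CPM, and combination mouse 6 had Saa1 at 1522 CPM. What set these mice apart was not tested.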

How the results depend on the processing

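For the 44 calls of a member in a comparison, 436 values were obtained under the other settings: 393 were still called in the same direction, 39 lost the call and 4 reversed, most often under total-count scaling (18). The number of members called with the combination against vehicle was 2, but 5 with only the groups compared and 4 without the 2 chow-fed mice with the highest Saa1. With high-dose semaglutide it was 1, but 0 under total-count scaling. For the combination against low-dose zalfermin it was 1, but 3 with only the groups compared and 2 with Hamp and Hamp2 counted together, and against low-dose semaglutide 1, but 0 with only the groups compared. Causes of these changes were not tested. The shares of all genes called under these settings are not given here, so these counts are not read as a result about the members.

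Leaving out 1 mouse at a time, the count was 6 to 8 for chow-fed controls against vehicle, 2 to 3 for the combination, 1 to 2 for high-dose zalfermin, 0 to 1 for high-dose semaglutide, 1 to 2 and 0 to 1 for the combination against low-dose zalfermin and low-dose semaglutide, 27 to 33 summed over the comparisons with chow-fed controls, and 4 for the correlations. The mice left out were those of the groups compared and low-dose semaglutide mouse 6, for the correlations only the latter. The shares of all genes called in these fits are not given here, so these counts too are not read as a result about the members. Hamp2 ranged from -0.67 to 4.07 between chow-fed controls and vehicle, and against chow-fed controls from -3.41 to 0.74 (low-dose zalfermin), -3.87 to 0.70 (low-dose semaglutide), -1.84 to 2.30 (combination), -1.90 to 2.42 (high-dose zalfermin) and -3.12 to 1.10 (high-dose semaglutide), the sign turning without chow-fed mouse 1. DESeq2, at default settings that replace counts flagged as outliers, gave Hamp2 at -0.48 for chow-fed controls against vehicle. In the same order of groups against chow-fed controls it gave 0.55, 0.53, 2.11, 2.23 and 0.90. Under total-count scaling Fth1 was at -0.38 for chow-fed controls against vehicle and at 0.26 for low-dose semaglutide against chow-fed controls. No paired analysis was made, because the labels name no pairs of mice between groups. Neighbouring sample numbers often went through the groups in turn, and a term for such blocks was not fitted.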

Other observations

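The genes whose deviations within groups ran most against those of Hamp over the 56 mice were Rcan2 (r = -0.63, rho = -0.65), Gas6 (r = -0.63, rho = -0.58), Antxr2 (r = -0.62, rho = -0.52), Lacc1 (r = -0.61, rho = -0.55) and Cxadr (r = -0.61, rho = -0.57). Gas6 encodes a ligand of TAM receptors. Of genes near hepcidin in function, Tmprss6, the protease that cleaves hemojuvelin, had r = 0.43 and Atoh8, a target of BMP signalling, had r = 0.32, while Hfe2 (hemojuvelin) had r = -0.32. The genes of this paragraph were chosen after their values were seen. The values are descriptions across mice that share a group's diet and treatment, with no test.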
